A study of Mus musculus with 2 samples.

Results

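Elastic fibres, proteoglycans and matrix glycoproteins are built from secreted proteins of fibroblasts. A list of 36 of their genes was followed here in mesenchymal cells of the mouse large intestine. The genes were taken by name from 32285 genes in the count tables, and all 36 were present. They fall into 15 genes of the elastic fibre and its assembly (Eln, Fbn1, Fbn2, Fbln1, Fbln2, Fbln5, Efemp1, Efemp2, Emilin1, Mfap2, Mfap4, Mfap5, Lox, Loxl1 and Loxl2), 9 proteoglycan genes (the small leucine-rich Dcn, Lum, Bgn, Fmod, Ogn, Prelp, Aspn and Podn, and the large Vcan) and 12 genes of matricellular and adhesive glycoproteins (Fn1, Tnc, Tnxb, Postn, Sparc, Sparcl1, Thbs1, Thbs2, Spon1, Spon2, Smoc2 and Matn2). The series, whose title concerns CXCL12 from Foxl1-high mesenchymal cells, holds 2 droplet single-cell RNA libraries of colon cells sorted as gp38+ and negative for CD45, EpCAM and CD31. The mice behind the ff library were C57BL/6 and those behind the GF library Balb/c, and the design text speaks of adult mice over 8 weeks old and of germ-free mice. The meaning of ff is not spelled out, germ-free status is given for the second library only by its name, and how many animals were pooled is not stated. Strain and germ-free status cannot be told apart between these libraries. With 1 library per group no difference between them has a replicate check, so no test between groups was made and all intervals cover counting error only.

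In elastic fibres, tropoelastin is laid down on microfibrils of fibrillin, fibulins and microfibril-associated proteins hold the parts together, and lysyl oxidases cross-link them. Small leucine-rich proteoglycans bind fibrillar collagen and set the width and spacing of its fibrils, while versican holds hyaluronan and water. Matricellular glycoproteins such as tenascin-C, periostin and the thrombospondins are known for tuning cell adhesion more than for bearing load. In the gut wall, fibroblasts differ by layer: Foxl1-high cells lie directly under the epithelium, lamina propria fibroblasts fill the mucosa, and adventitial or submucosal fibroblasts lie deeper, around vessels and crypt bases.

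After filtering, 12152 ff and 14286 GF cells were retained, with a median of 8858 and 6350 UMIs (unique molecular identifiers, 1 per captured transcript). The mesenchymal gate asked a cell to lie in a mesenchymal cluster, to carry a UMI of at least 2 of 6 marker genes (Col1a1, Col1a2, Col3a1, Pdgfra, Pdgfrb and Pdpn) and to carry none of Ptprc, Epcam or Pecam1. It kept 11784 ff cells (97.0%) and 12711 GF cells (89.0%). Pdpn, the gene of gp38, was found in 82.0% of gated ff cells and 77.7% of gated GF cells, and Col1a1 stood at 1767 and 1769 counts per 1000000 UMIs (CPM). Before the per-cell gate, the mesenchymal clusters held Ptprc (CD45) at 0.140 and 1.47 CPM, Epcam at 0.298 and 0.134 CPM and Pecam1 (CD31) at 0.578 and 0.694 CPM; these clusters were selected as mesenchymal, so low values there follow from the selection. Among the retained cells outside them were lymphocytes, 77 ff and 76 GF macrophage-like cells and endothelium-like cells, types that carry CD45 or CD31 and go against the label of the sort. The cells were clustered without the 36 genes, and 16 clusters with at least 50 gated cells in each library are described by their leading gene. The Sox6-led and Nrg1-led clusters were Foxl1-high-like by their markers (2095 ff and 1002 GF cells), the Cd36-led and Col6a5-led clusters lamina propria-like (2057 and 2241), and the Ackr4-led, Pi16-led, Efhd1-led and Npy1r-led clusters adventitial or submucosal-like (2488 and 2807). A further 7 fibroblast-like clusters stayed unnamed, among them those led by Cxcl13, Cck, Cx3cr1, Myoc, Ntrk3 and Cxcl9, and the Actg2-led cluster was smooth muscle-like. Lymphocytes, not known as a source of most of these proteins, numbered 87 in ff and 1219 in GF and give the level that free RNA or mixed droplets can leave. That level was far higher in ff: Dcn stood at 2942 CPM in ff lymphocytes and 269.8 CPM in GF lymphocytes, so low levels are read beside it. The barcodes of 55 cells occurred in both libraries.

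Promoter sequences of 20 of the 36 genes were in the RefSeq table for GRCm38.p6, here the 250 bases upstream of the annotated start. Of the 6 printed, 5 belong to genes with large class differences in the comparisons that follow, and Aspn, a neighbour of Ogn on chromosome 13, is shown beside it. Fbn1, Fbln2 and Tnxb had their highest levels in the Efhd1-led adventitial-like cluster and low levels in Foxl1-high-like cells, while Ogn and Tnc were highest in Foxl1-high-like clusters. Capitals mark TATAAA (the core of the TATA box), CCAAT (the CCAAT box), GGGCGG (the core of the GC box) and TGANTCA (the AP-1 core), searched on both strands; matches of different motifs may overlap. The promoters are Fbn1 at chr2:125506439-125506688 (minus strand), Fbln2 at chr6:91212514-91212763 (plus strand), Tnxb at chr17:34670285-34670534 (plus strand), Ogn at chr13:49607765-49608014 (plus strand), Aspn at chr13:49544193-49544442 (plus strand) and Tnc at chr4:64047016-64047265 (minus strand), each written 5′ to 3′.
Fbn1: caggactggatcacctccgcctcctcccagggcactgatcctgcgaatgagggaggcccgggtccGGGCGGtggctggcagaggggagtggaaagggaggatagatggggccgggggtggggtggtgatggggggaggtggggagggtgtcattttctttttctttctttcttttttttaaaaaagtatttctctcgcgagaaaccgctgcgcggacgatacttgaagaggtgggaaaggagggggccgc
Fbln2: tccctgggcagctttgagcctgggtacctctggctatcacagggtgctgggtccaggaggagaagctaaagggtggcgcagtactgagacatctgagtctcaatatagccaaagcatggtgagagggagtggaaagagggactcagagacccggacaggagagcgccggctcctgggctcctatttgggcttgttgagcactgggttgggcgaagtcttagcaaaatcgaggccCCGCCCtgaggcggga
Tnxb: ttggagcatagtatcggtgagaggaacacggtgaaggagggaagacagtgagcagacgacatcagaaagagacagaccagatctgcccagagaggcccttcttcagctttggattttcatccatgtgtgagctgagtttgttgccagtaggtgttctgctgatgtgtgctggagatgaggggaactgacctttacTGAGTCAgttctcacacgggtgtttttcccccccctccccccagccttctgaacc
Ogn: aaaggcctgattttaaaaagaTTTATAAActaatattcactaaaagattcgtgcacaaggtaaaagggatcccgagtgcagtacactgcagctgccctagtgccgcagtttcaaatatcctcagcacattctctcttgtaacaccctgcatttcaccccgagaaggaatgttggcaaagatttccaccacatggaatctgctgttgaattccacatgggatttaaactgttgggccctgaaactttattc
Aspn: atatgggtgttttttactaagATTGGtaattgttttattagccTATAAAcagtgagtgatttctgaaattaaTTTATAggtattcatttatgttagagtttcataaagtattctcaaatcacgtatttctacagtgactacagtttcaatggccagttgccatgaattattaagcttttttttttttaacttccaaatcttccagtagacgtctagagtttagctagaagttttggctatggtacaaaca
Tnc: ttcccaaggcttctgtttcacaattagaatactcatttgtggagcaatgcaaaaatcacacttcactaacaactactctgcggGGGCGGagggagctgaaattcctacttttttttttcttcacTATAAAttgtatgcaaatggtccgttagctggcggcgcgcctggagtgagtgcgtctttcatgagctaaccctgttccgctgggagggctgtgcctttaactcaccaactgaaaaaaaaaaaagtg
TATAAA was found in 5 of the 20 promoters (Ogn, Aspn, Tnc, Postn and Thbs2), beside 12.4% of 32851 promoters of the same length in the table. It was counted 2 times each in the Ogn and Aspn windows. In Ogn the 2 matches overlap on opposite strands within a single stretch, TTTATAAA, and in Aspn they lie apart. These 2 windows were also the most AT-rich of the 20, with 42.0% and 30% of bases G or C. GGGCGG was in 9 of 20 (32.7% of all promoters), CCAAT in 6 of 20 (33.8%) and TGANTCA in 2 of 20 (6.75%), Efemp1 and Tnxb. A match describes letters in this window and is neither a site nor a cause.

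Across all gated cells the 36 genes gave 3.44% of UMIs in ff and 3.42% in GF. A 3′ library counts each captured molecule a single time whatever the transcript's length, so CPM was not divided by length. Capture can still differ between genes and was not corrected, so orders of genes are orders of captured UMIs. Decorin led: Dcn, whose small proteoglycan coats collagen fibrils, stood at 12238 CPM in ff against 13104 CPM in GF. It gave more UMIs than any other of the 36. Sparc, a collagen-binding glycoprotein, followed at 3528 and 3893 CPM. These 2 genes were also the most widely detected, with a UMI of Dcn in 99.4% and 99.4% and of Sparc in 99.7% and 99.5% of gated cells. Free RNA or mixed droplets can add to such shares, which were not told apart: Dcn had a UMI in 70.1% of ff lymphocytes and 29.7% of GF lymphocytes. With each cell thinned to 2000 UMIs, which left out 223 ff and 385 GF gated cells, Dcn was found in 97.4% and 98.6% of gated cells and 50.6% and 24.4% of lymphocytes. Among elastic fibre genes the most abundant 4 were, by their mean over the libraries, Fbln1, Fbn1, Mfap5 and Eln. Fibulin-1 (Fbln1) stood at 1506 and 1659.5 CPM, and fibrillin-1 (Fbn1), the backbone of microfibrils, at 765 and 964 CPM. Tropoelastin (Eln, chr5:134702593-134747323 on the minus strand of GRCm38) stood at 431 and 798 CPM.

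**Figure D1:**
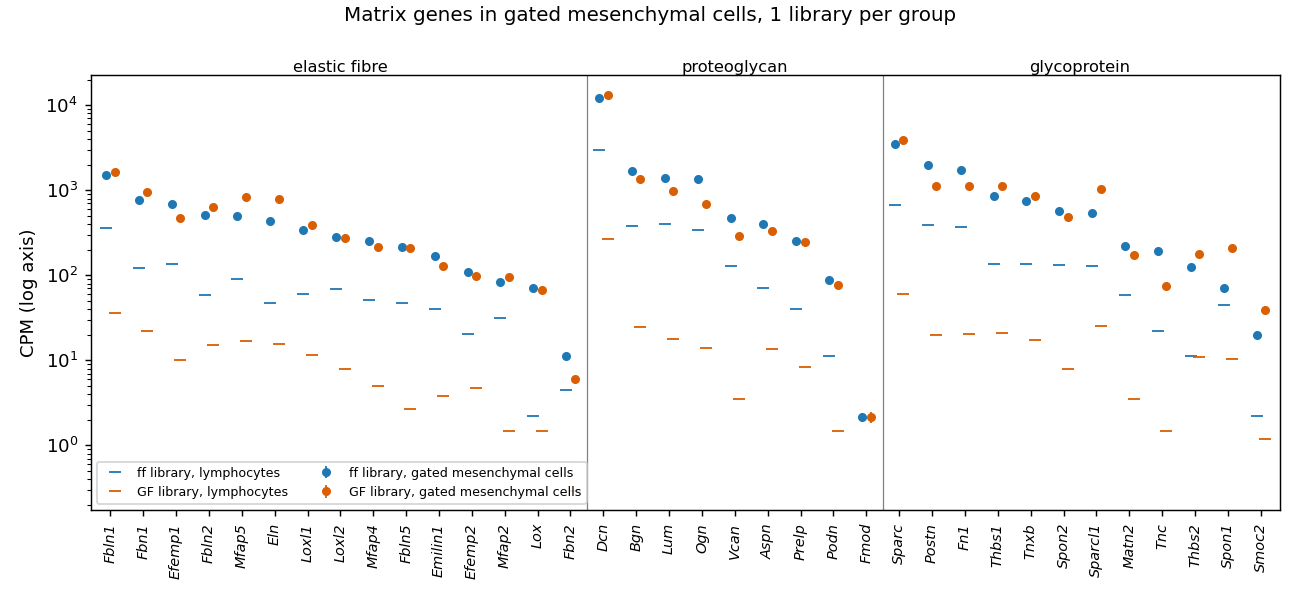
Level of each matrix gene in all gated mesenchymal cells of the ff and GF libraries (CPM on a log axis, points; bars are 95% Poisson intervals, mostly smaller than the points) and in lymphocytes of the same library (dashes), by gene group. Dcn is highest at 12238 and 13104 CPM and Fmod lowest at 2.13 and 2.15 CPM, and the lymphocyte dashes lie higher in ff than in GF for most genes.

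At the low end, Fmod (fibromodulin, a regulator of collagen fibrils in tendon) had 226 and 189 UMIs in all, 2.13 CPM (95% interval 1.86 to 2.43) and 2.15 CPM (1.85 to 2.48). Fbn2, the fibrillin of developing tissue, stood at 11.2 CPM (10.6 to 11.9) in ff against 6.08 CPM (5.58 to 6.62) in GF. Smoc2, a calcium-binding relative of Sparc, stood at 19.99 and 39.6 CPM. The remaining 33 genes were above 60 CPM in each library. Lox, which cross-links collagen and elastin, was at 71.7 and 66.3 CPM. Its relative Loxl1, whose substrate is elastin, was at 339 and 393 CPM, and Loxl2, known for acting on basement membrane collagen, was at 285 and 274 CPM. Of the 3 oxidases Lox was thus the least abundant in each library.

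Levels differed far more between clusters than between libraries, and the order of clusters was alike in both. The correlation between the ff and GF profiles over the 16 clusters, on log2(CPM + 1), ran from 0.57 for Efemp2 to 0.98, with a median of 0.94 over the 36 genes; the points share libraries and clustering and are a description. The cluster with the highest level was the same in both libraries for 25 of 36 genes. By share of UMIs, the 36 genes took most in the Npy1r-led cluster (4.58% in ff and 4.58% in GF, from 71 and 82 cells) and the Pi16-led cluster (4.25% and 4.49%). They took least in the smooth muscle-like Actg2-led cluster (1.74% and 1.63%) and in the Foxl1-high-like clusters, with 2.13% and 1.33% in the Nrg1-led and 2.26% and 1.81% in the Sox6-led cluster. The elastic fibre genes alone took 0.955% and 1.196% of UMIs in the Efhd1-led cluster against 0.271% and 0.259% in the Sox6-led cluster.

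**Figure D2:**
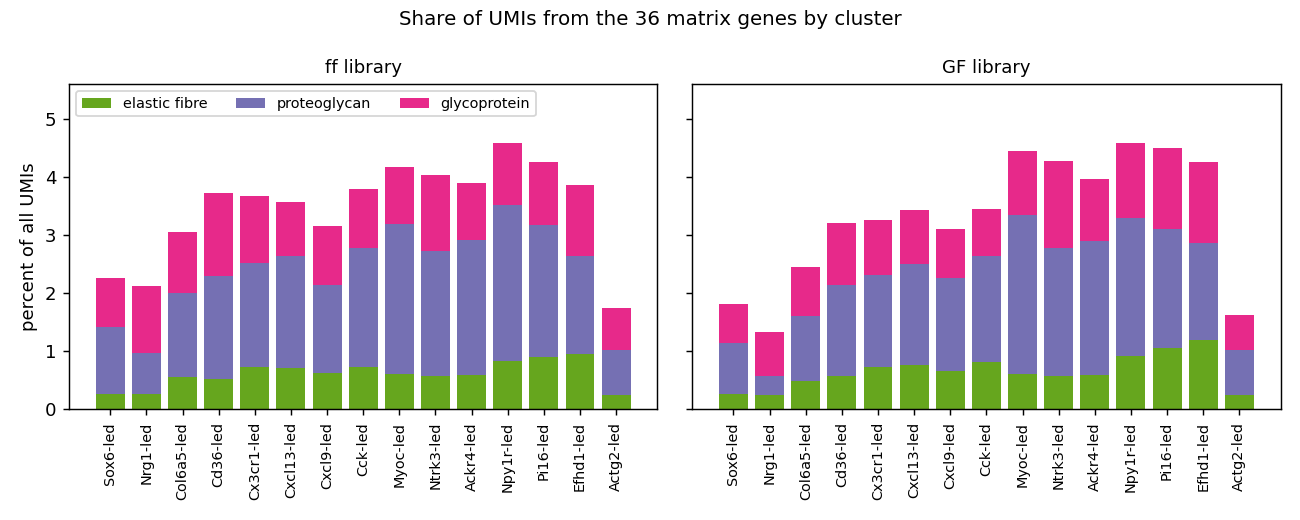
Percent of all UMIs of a cluster that came from the 36 matrix genes, stacked by gene group, for 15 of the 16 clusters in the ff and GF libraries. The Npy1r-led and Pi16-led clusters stand highest, at 4.58% and 4.25% in ff, and the Actg2-led, Nrg1-led and Sox6-led clusters lowest.

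The elastic fibre genes did not share a single pattern across clusters. Over the 15 fibroblast-like clusters the median correlation between pairs of elastic fibre genes was 0.21 in ff and 0.15 in GF, with single pairs from -0.86 to 0.92 in ff. Eln was highest in the unnamed Cck-led cluster, at 959 CPM in ff against 1819.7 CPM in GF, with the Pi16-led cluster at 786 and 1405 CPM. It was lowest in the Foxl1-high-like clusters, at 18.8 and 32.0 CPM in the Sox6-led and 11.1 and 42.3 CPM in the Nrg1-led cluster. Those levels lay below the lymphocyte level in ff (47.1 CPM) and above it in GF (15.6 CPM). The microfibril genes peaked elsewhere. Fbn1 reached 2513 and 3649 CPM in the Efhd1-led cluster, well above its next cluster, the Pi16-led, at 1538 and 1509 CPM. Mfap5, which encodes the microfibril-associated glycoprotein MAGP-2, reached 1834 and 3146 CPM there and stood at 12.8 and 12.9 CPM in the Sox6-led cluster. With 1 CPM added, its highest and lowest clusters differed 138-fold in ff and 227-fold in GF, the widest range among the elastic fibre genes. Mfap2 (MAGP-1), its close relative, was nearly even, with a 2.78-fold and 3.12-fold range. Fbln2, Efemp1 (fibulin-3) and Loxl1 also peaked in the Efhd1-led cluster in both libraries.

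Other assembly genes had patterns of their own, and Emilin1 ran the opposite way. Emilin1, whose protein sits between elastin and microfibrils, was highest in the Sox6-led cluster in ff (303 CPM) and reached 294 CPM there in GF. It was low in adventitial or submucosal-like clusters, with 54.3 and 50.6 CPM in the Pi16-led cluster, and its profile ran against those of Mfap5 (r -0.85 in ff and -0.90 in GF) and Fbn1 (-0.86 and -0.85). Fbln5, whose protein brings tropoelastin to microfibrils, was highest in the Cx3cr1-led cluster at 352 and 351 CPM. It differed between the Foxl1-high-like clusters, with 319.9 and 233 CPM in the Sox6-led and 63.8 and 36.9 CPM in the Nrg1-led cluster. Mfap4, a partner of fibrillin and elastin, was highest in the Col6a5-led cluster in ff (613 CPM) and in the Myoc-led cluster in GF (563 CPM). It was low in the Efhd1-led cluster (23.6 and 16.2 CPM), where Fbn1 and Mfap5 stood high. Efemp2 (fibulin-4), needed for elastic fibre assembly in mice, varied least of the 36, with a 1.72-fold range in ff and 1.70-fold in GF. Fbn2, low over all gated cells, stood at 43.3 and 37.6 CPM in the smooth muscle-like cluster, 37.5 and 33.7 CPM in the Nrg1-led, and 31.8 and 11.8 CPM in the Cd36-led cluster. Lox was highest in the Col6a5-led cluster (143 and 117 CPM).

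**Figure D3:**
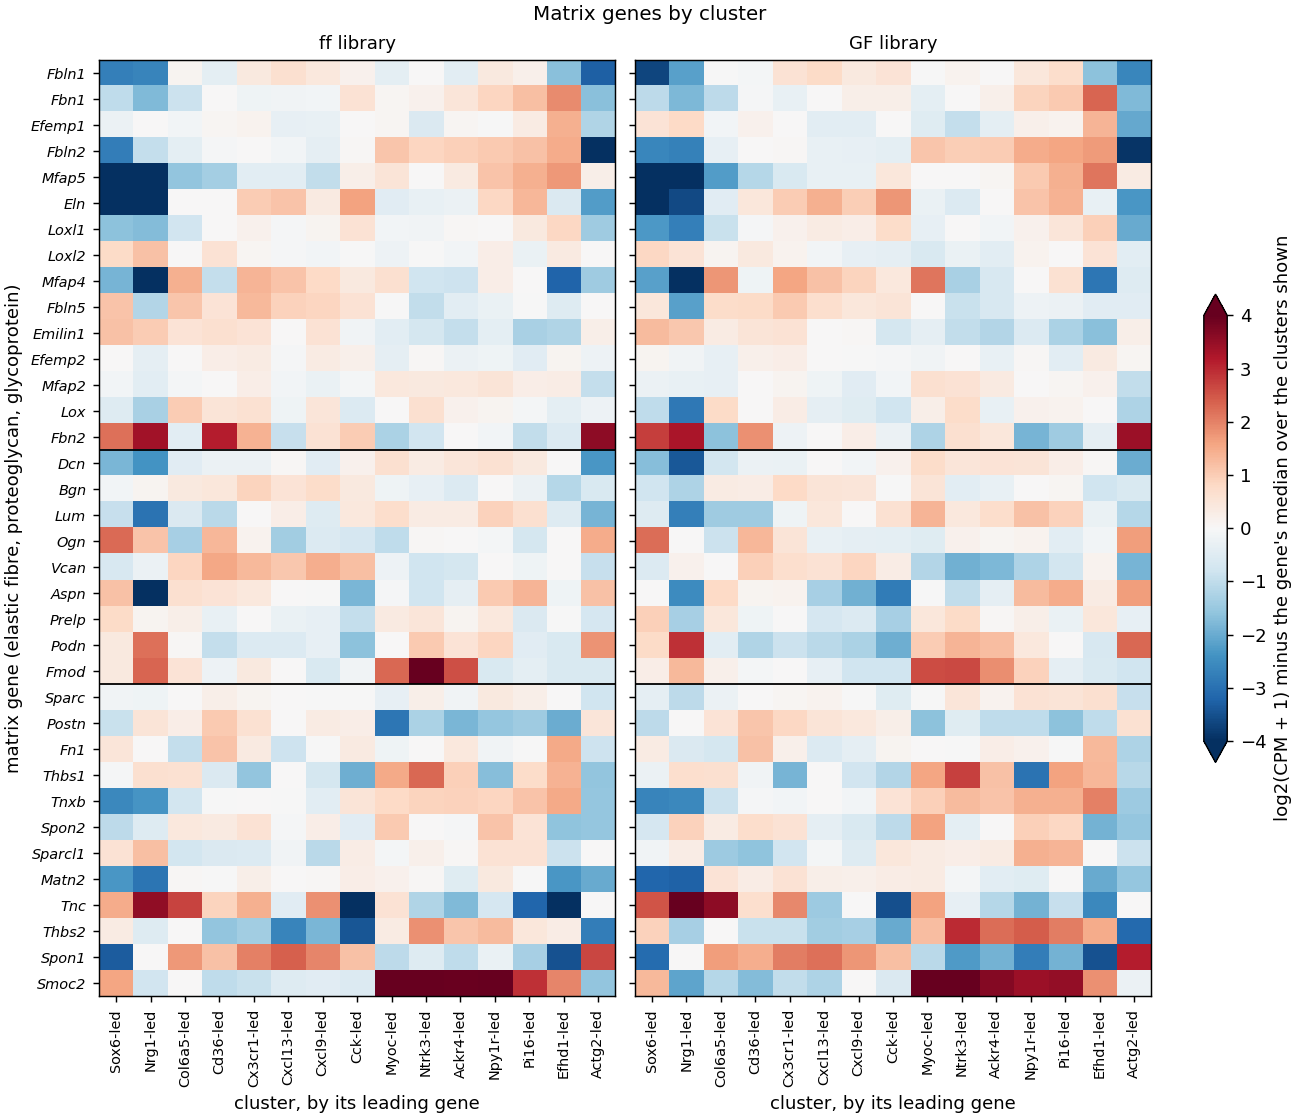
Level of the 36 genes (rows, in 3 groups set apart by lines) in 15 of the 16 clusters (columns, named by the leading gene) of the ff and GF libraries, as log2(CPM + 1) minus the gene's median over the clusters shown; the colour scale ends at -4 and 4 and values beyond share the end colours. Both panels show Eln and Mfap5 lowest in the Sox6-led and Nrg1-led columns, and Smoc2 highest in the Myoc-led and Ntrk3-led columns.

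Among the proteoglycans, Dcn was highest in the Myoc-led cluster at 20809.6 and 22134 CPM and lowest in the Nrg1-led cluster at 2569 and 1268 CPM. The latter lay below the lymphocyte level of 2942 CPM in ff and above that of 269.8 CPM in GF. Lum (lumican, which spaces collagen fibrils) stood at 2282 and 2114 CPM in the Myoc-led cluster, its highest in GF. Ogn (osteoglycin, also called mimecan) was highest in the Sox6-led cluster at 4052 and 2376 CPM. It was also high in smooth muscle-like cells (2364 and 1597 CPM) and in the Cd36-led cluster (2114 and 1256 CPM). Within the mucosa, the other lamina propria-like cluster, led by Col6a5, had 335 and 274 CPM. Podn (podocan, found around smooth muscle in arteries) was highest in the Nrg1-led cluster at 391 and 481 CPM and in smooth muscle-like cells at 299 and 313 CPM. Aspn (asporin, a collagen-binding relative of decorin) split the Foxl1-high-like cells, with 743 and 312 CPM in the Sox6-led cluster and 16.02 and 53.2 CPM in the Nrg1-led cluster. Bgn (biglycan) had its highest level in the Cx3cr1-led cluster, at 2749 and 2127 CPM. Prelp, which links collagen to basement membranes, was highest in the Sox6-led cluster in ff (429 CPM). Vcan, the hyaluronan-binding versican, was highest in the Cd36-led cluster at 859.8 and 545 CPM. Fmod reached 23.3 and 9.71 CPM in the Ntrk3-led cluster, its highest in each library.

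Among the glycoproteins, Tnc and Smoc2 varied widely across clusters. Tnc (tenascin-C) reached 1166 and 810.0 CPM in the Nrg1-led cluster. Its next levels were in the Col6a5-led cluster (646 and 342 CPM), and it stood at 3.59 and 3.79 CPM in the Efhd1-led cluster. Tnxb (tenascin-X, which binds collagen fibrils of loose connective tissue) ran the other way, from 1838 and 2262 CPM in the Efhd1-led cluster to 105 and 87.6 CPM in the Sox6-led cluster. Smoc2 stood at 97.9 and 115 CPM in the Ntrk3-led cluster and under 3 CPM in both lamina propria-like clusters. Postn (periostin) was highest in the Cd36-led cluster at 4258 and 2318 CPM. Fn1 (fibronectin) was high in 2 clusters, the Efhd1-led at 3848 and 2344 CPM and the Cd36-led at 3017 and 2160.1 CPM. Thbs1 (thrombospondin-1, an activator of latent TGF-beta) was highest in the Ntrk3-led cluster at 3547 and 4197 CPM. Spon1 (F-spondin, known from axon guidance) was highest in smooth muscle-like cells at 234 and 880.4 CPM. Sparc varied least of the glycoproteins, 2.26-fold in ff and 3.23-fold in GF.

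Close pairs across clusters lay both between and within the gene groups. The highest mean correlation over the 15 fibroblast-like clusters was between Fbln2 and Tnxb (r 0.94 in ff and 0.97 in GF), followed by Fbln1 and Matn2 (0.94 and 0.92) and Mfap5 and Tnxb (0.93 and 0.89). Mfap5 and Loxl1, both elastic fibre genes, had 0.92 and 0.89. Pairs of an elastic fibre and a glycoprotein gene had a median of 0.03 in ff and 0.04 in GF. Pairs within the elastic fibre genes had 0.21 and 0.15. Postn and Smoc2 were the most opposed (-0.93 and -0.86). Of the 36 genes, 4 pairs lie within 500000 bases of each other. Dcn and Lum, 46985 bases apart on chromosome 10, had like profiles (r 0.85 and 0.83), as had Smoc2 and Thbs2, 260710 bases apart on chromosome 17 (0.86 and 0.91). Prelp and Fmod on chromosome 1 had r of 0.38 and 0.45. Aspn and Ogn on chromosome 13, 40481 bases apart, had r of -0.13 and -0.03. Eln was compared with 9718 genes that had at least 500 UMIs in each library. Ltbp4 was the most like it (r 0.97 in ff and 0.96 in GF), a latent TGF-beta binding protein that takes part in elastic fibre assembly in mice, followed by Ppl, Sulf2, Thsd7a and Adamts2 with mean r from 0.91 to 0.93. Among the 36, Loxl1 was the closest to Eln (0.85 and 0.90).

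Foxl1-high-like cells were then set against all other fibroblast-like cells within each library. Elastic fibre RNA was scarce in them, with Eln and Mfap5 furthest down, while Ogn, Tnc and Podn were higher in both libraries. A gene is called here when its log2 ratio, with 1 CPM added to each level, is past 1.5-fold; the intervals are for the ratio without that addition. In ff, 9 of 36 genes were called higher and 16 lower, where 12.6% and 13.6% of all 13129 genes measured were called. In GF, 7 were called higher and 18 lower, where the shares of all genes were 17.8% and 14.1%. Called in the same direction in both libraries were 7 higher and 15 lower of 36, beside 10.3% and 11.2% of all genes. The median log2 ratio of the elastic fibre genes was -0.78 in ff and -1.195 in GF. For the proteoglycans it was 0.01 and -0.51, for the glycoproteins -0.34 and -0.84, and for all genes 0.10 and 0.17.

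Mfap5 stood at 12.7 CPM in Foxl1-high-like and 605 CPM in other fibroblast-like cells of ff, and at 16.5 and 919 CPM in GF. Its log2 ratios were -5.47 (95% interval -5.76 to -5.39) and -5.72 (-6.07 to -5.55), and its level over Foxl1-high-like cells was not above that in lymphocytes (89.6 and 17.1 CPM). In GF the Nrg1-led cluster alone held 42.3 CPM (39 UMIs), above the lymphocyte level, and the Sox6-led cluster 12.9 CPM. In ff, 7 of the 36 genes were not above the lymphocyte level in Foxl1-high-like cells (Eln, Fbln1, Mfap4, Mfap5, Tnxb, Spon1 and Matn2), against 1 in GF (Mfap5). How much of the ff levels of those 7 came from free RNA or mixed droplets was not tested, and their ff ratios carry that limit. Eln stood at 17.2 against 531 CPM in ff and 33.3 against 892 CPM in GF, log2 ratios of -4.87 (-5.11 to -4.80) and -4.70 (-4.93 to -4.57). Fbln1 had log2 ratios of -2.75 and -3.68, and Fbln2 of -2.60 and -3.23. Fbn1, Loxl1, Mfap4 and Lox completed the 8 elastic fibre genes called lower in both libraries. Against them, 3 elastic fibre genes were called higher in both. Fbn2 stood at 20.8 against 8.42 CPM in ff and 24.7 against 3.35 CPM in GF, Emilin1 had log2 ratios of 1.10 and 1.37, and Loxl2 of 0.76 and 0.80. Against the named classes alone, Loxl2 fell short of the fold in GF, at 0.58.

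Ogn stood at 3588 CPM in Foxl1-high-like and 829.9 CPM in other fibroblast-like cells of ff, and at 2149 and 524 CPM in GF, log2 ratios of 2.11 (2.10 to 2.13) and 2.03 (2.01 to 2.06). Podn had log2 ratios of 1.40 and 1.26, and Prelp of 0.83 and 0.75, the latter 0.56 and short of the fold under median-of-ratios scaling. Within GF, the Nrg1-led cluster taken alone had Ogn at 499 CPM and Prelp at 89.0 CPM. Both lay below other fibroblast-like cells (524 and 235 CPM). In ff that cluster held 1851 and 274 CPM, above other fibroblast-like cells (829.9 and 222 CPM). Dcn was the proteoglycan furthest down, at 3489 against 14411 CPM in ff and 3761 against 14295 CPM in GF, log2 ratios of -2.05 and -1.93. Lum was lower too, with -1.34 and -0.99. The balance of Dcn and Ogn RNA thus differed by class. In Foxl1-high-like cells Ogn was about level with Dcn in ff, where Dcn lay not far above its lymphocyte level (2942 CPM). In GF Dcn exceeded Ogn there, at 3761 against 2149 CPM. In other fibroblast-like cells Dcn far exceeded Ogn in each library. Among the glycoproteins, Tnc was the gene called higher in both libraries, at 465 against 132 CPM and 243 against 60.0 CPM (log2 ratios 1.81 and 1.998). Tnxb was lower, with log2 ratios of -3.03 and -3.41, Matn2 (matrilin-2, an adaptor between matrix networks) with -2.48 and -3.34, and Spon1 with -2.94 and -3.24. Smoc2 was also lower (-1.74 and -2.25), as was Spon2 (mindin; -1.17 and -0.70). Fn1 differed little, with 0.03 and -0.02. Sparcl1 (hevin, a relative of Sparc) was called higher in ff alone, at 0.85, with -0.12 in GF; whether that ratio differs between the libraries was not tested.

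**Figure D4:**
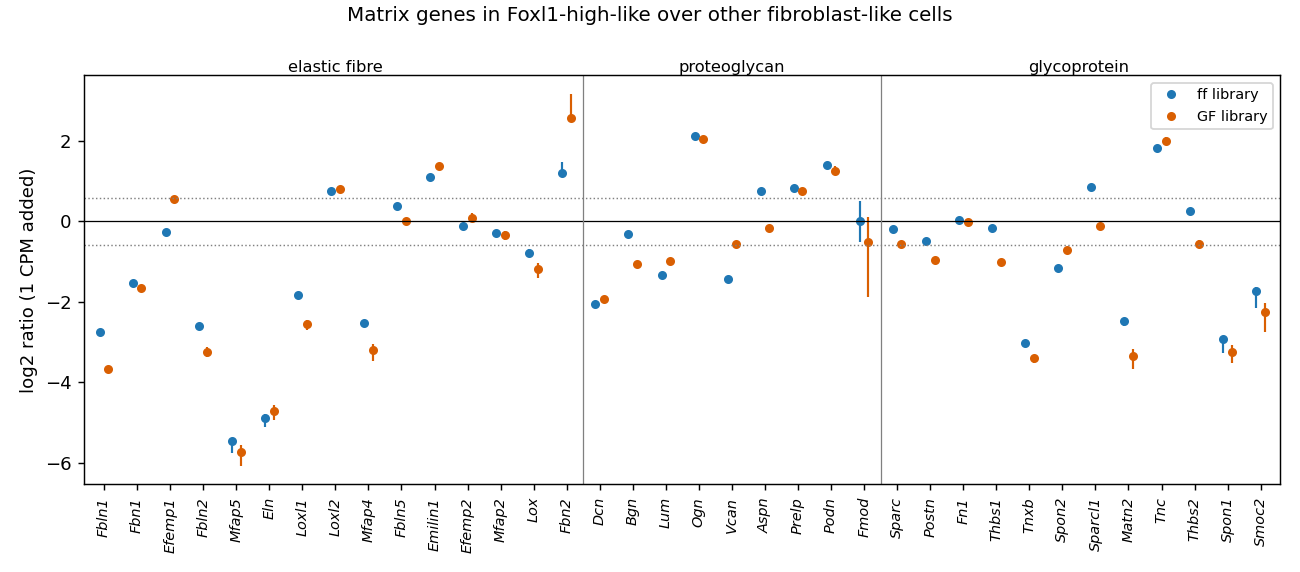
Log2 ratio of each matrix gene (1 CPM added), Foxl1-high-like cells relative to the remaining fibroblast-like cells, in each library, by gene group; bars are 95% counting intervals of the ratio without the addition, and dotted lines mark 1.5-fold. Mfap5 and Eln lie lowest in both libraries, below -4, and Ogn, Tnc and Fbn2 lie above 1.

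Related genes of the same systems, which are not among the 36, were called lower more often than higher. Of all genes, 10.3% were called higher and 11.2% lower in both libraries. Of 19 elastic fibre partners, 3 were called higher and 8 lower in both libraries. Emilin2 had log2 ratios of -4.92 and -5.28, and Ltbp4 of -1.90 and -1.78. The ADAMTS-like genes Adamtsl5 (-2.45 and -2.43) and Adamtsl2 (-2.08 and -2.67), which bind microfibrils, were lower as well. Of 23 related proteoglycan genes measured, 3 were called higher and 10 lower in both. Gpc3 (a glypican) had -4.95 and -3.89, and Spock2 (testican-2) -3.19 and -3.64. Has1, a hyaluronan synthase, and Hapln1, the link protein of hyaluronan, were lower too, but both served as markers when other classes were named, so their ratios are no independent value. Of 31 related glycoprotein genes, 7 were called higher and 13 lower in both, with Pcolce2, an enhancer of procollagen processing, at -6.06 and -6.59. Edil3 (-5.61 and -4.32), Ccn3 (-4.68 and -4.34) and Abi3bp (-4.82 and -3.30) followed. Dpt, also on that list, was a naming marker of another class as well.

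Adventitial or submucosal-like cells were set against lamina propria-like cells in the same way, with 35 of the 36 genes measured (Fmod had too few UMIs). Adventitial or submucosal-like cells held more RNA of fibrillin-1, Mfap5, tenascin-X and the thrombospondins, and lamina propria-like cells more tenascin-C, periostin, F-spondin and versican. In ff, 11 genes were called higher and 11 lower, beside 9.85% and 15.4% of all 11769 genes measured. In GF, 13 were called higher and 12 lower, beside 9.6% and 24.7%. In both libraries 11 were called higher and 10 lower, beside 6.87% and 13.2% of all genes. In ff the medians of the 3 groups stayed near that of all genes (-0.08), with -0.11 for elastic fibre, -0.04 for proteoglycan and -0.19 for glycoprotein genes. In GF they were -0.04, 0.14 and 0.29, each above that of all genes (-0.20). Called in both libraries were 3 elastic fibre genes higher and 4 lower, 3 and 3 proteoglycan genes, and 5 and 3 glycoprotein genes. The groups thus split between the layers and did not move as blocks.

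Mfap5 stood at 1172 CPM in adventitial or submucosal-like and 205 CPM in lamina propria-like cells of ff, and at 2047 and 255 CPM in GF, log2 ratios of 2.51 (2.47 to 2.57) and 3.001 (2.96 to 3.05). Fbn1 stood at 1433 against 592 CPM and 2159 against 566 CPM, log2 ratios of 1.27 and 1.93. Fbln2 had 1.26 and 1.61. Emilin1 was lower, with log2 ratios of -1.70 and -1.80, as was Fbln5 with -1.02 and -1.19. Fbn2, which stood at 23.7 and 7.20 CPM in lamina propria-like cells, had log2 ratios of -3.07 and -1.46. Eln itself was past 1.5-fold in neither library (0.40 and 0.34). Lum was higher, at 1759.7 against 738 CPM in ff and 1158 against 306 CPM in GF, log2 ratios of 1.25 and 1.92. Dcn had log2 ratios of 0.67 and 0.69, and Podn of 0.72 and 1.19. Vcan was lower, with log2 ratios of -1.75 and -1.15, and so was Ogn with -1.14 and -0.92. Lum, Dcn and Podn thus lay on the adventitial or submucosal-like side, and Vcan, Bgn and Ogn on the lamina propria-like side.

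Smoc2 stood at 31.2 and 36.4 CPM in adventitial or submucosal-like and 0.866 and 0.569 CPM in lamina propria-like cells, log2 ratios of 4.11 and 4.58. The lamina propria-like values rest on 18 and 9 UMIs and are not above the lymphocyte level (2.24 and 1.18 CPM), and with 10 CPM added the ratios were 1.92 and 2.14. Tnxb had log2 ratios of 1.29 and 1.94, Thbs2 (thrombospondin-2, an inhibitor of vessel growth) of 1.77 and 2.39, and Thbs1 of 1.12 and 1.13. Sparcl1 was higher, with log2 ratios of 0.73 in ff and 2.19 in GF. On the other side, Tnc stood at 18.6 against 308 CPM in ff and 9.32 against 163 CPM in GF, log2 ratios of -3.98 and -3.99. In adventitial or submucosal-like cells of ff, Tnc, Spon1 and Fbn2 were not above the lymphocyte level, and in GF all 3 were. Postn stood at 621 against 3777 CPM and 475 against 2022 CPM, log2 ratios of -2.60 and -2.09. Spon1 had log2 ratios of -2.70 and -3.89. Tenascin-C and tenascin-X genes therefore lay on opposite sides of this comparison in both libraries, as in that of Foxl1-high-like cells. Among related genes, 4 of 18 elastic fibre partners were called higher and 6 lower in both libraries, 9 of 22 related proteoglycan genes higher and 6 lower, and 14 of 30 related glycoprotein genes higher and 6 lower. Of all genes, 6.87% were called higher and 13.2% lower in both. The related lists include Has1, Dpt and Hapln1, markers by which these classes were named, so the direction of those genes is no independent value. Pcolce2 had log2 ratios of 7.19 and 7.43, and Cilp (known from cartilage) of 4.67 and 6.09. Emilin2 was higher (2.19 and 4.05), as was Gpc3 (4.07 and 2.62), with Adamtsl1 at 2.40 and 1.88 and Ccn5 at 3.91 and 4.03. Edil3 (-5.07 and -4.58), Spock3 (-4.26 and -4.26), Adamtsl2 (-2.70 and -2.11) and Fbln7 (-2.25 and -2.52) were lower.

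Between the libraries, GF cells held more RNA of Eln, Mfap5, Sparcl1, Spon1 and Smoc2 and less of Tnc, Ogn, Postn, Fbn2, Vcan and Fn1, over all gated mesenchymal cells. These 5 higher and 6 lower of 36 compare with 4.82% and 5.27% of 14798 genes called higher and lower, and 25 genes were within 1.5-fold. The median log2 ratio, GF over ff, was -0.04 for elastic fibre, -0.27 for proteoglycan and 0.17 for glycoprotein genes, and 0.02 for all genes. The groups as a whole gave close to equal shares of UMIs, with elastic fibre genes at 0.592% in ff and 0.685% in GF, proteoglycans at 1.79% and 1.71% and glycoproteins at 1.06% and 1.03%. Depth, the share of gated cells and the lymphocyte level of matrix RNA also differed between the libraries (above). Thinning, the gate and the cell filter are among the alternatives given at the end. Beyond those, the part of these differences in the ratios was not tested.

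Eln stood at 431 CPM (427 to 435) in ff against 798 CPM (792 to 804) in GF, a log2 ratio of 0.89 (95% interval 0.87 to 0.91). It was called higher in GF in 12 of 15 fibroblast-like clusters and lower in 0; of all pairs of a gene and a cluster with at least 50 UMIs, 8.24% were called higher and 8.21% lower. In the Cck-led cluster, where Eln peaked, the log2 ratio was 0.92. Mfap5 stood at 498 and 841 CPM, a log2 ratio of 0.75 (0.74 to 0.77), but was called higher in only 4 of 15 clusters and lower in 1. When the GF clusters were given the cell shares of ff, the ratio for Mfap5 was 0.42, and the Efhd1-led cluster, where it peaks, held 445 ff and 892 GF cells. Fbn2 had a log2 ratio of -0.79 (-1.04 to -0.74), short of the fold at the cell shares of ff (-0.39), with 10 CPM added (-0.40) and after thinning (-0.56). Efemp1 missed the fold at -0.55 (688 and 470.4 CPM), yet was called lower in 9 of 15 clusters and higher in 0; in Foxl1-high-like cells its log2 ratio was 0.19.

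Among proteoglycans, Ogn stood at 1355 CPM in ff against 692 CPM in GF, a log2 ratio of -0.97 (-0.98 to -0.96). It was called lower in 6 of 15 clusters, with log2 ratios of -0.74 in Foxl1-high-like, -0.91 in lamina propria-like and -0.69 in adventitial or submucosal-like cells. Foxl1-high-like cells, where Ogn peaks, numbered 2095 in ff and 1002 in GF. Vcan stood at 476 and 290.0 CPM (-0.71) and was called lower in 12 of 15 clusters, but not in Foxl1-high-like cells (0.04). Lum, at 1378 and 978 CPM (-0.49), had intervals below 0 in 15 of 15 clusters and its widest class ratio in lamina propria-like cells (-1.27). Bgn had -0.34, and -1.06 in Foxl1-high-like cells. Dcn (0.10) and Prelp (-0.03) were nearly level.

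Among glycoproteins, Spon1 stood at 70.0 CPM (68.5 to 71.6) in ff against 211 CPM (208 to 215) in GF, the highest ratio of the 36 at 1.58 (1.56 to 1.63). It was called higher in 13 of the 14 clusters with at least 50 UMIs and lower in 0. Sparcl1 stood at 534 and 1046 CPM (0.97) and was called higher in 11 of 15. Its log2 ratio was 1.58 in adventitial or submucosal-like cells (543 and 1631 CPM), 0.23 in Foxl1-high-like and 0.12 in lamina propria-like cells. Smoc2 stood at 19.99 and 39.6 CPM (0.95); at the cell shares of ff its ratio was 0.49. The Ntrk3-led cluster, where Smoc2 stood high, held 265 ff and 884 GF cells. Tnc stood at 192 CPM in ff against 74.9 CPM in GF, the lowest ratio of the 36 at -1.34 (-1.39 to -1.31). It was called lower in 11 of the 13 clusters with at least 50 UMIs and higher in 0. Its class ratios were -0.94 in Foxl1-high-like, -0.92 in lamina propria-like and -0.93 in adventitial or submucosal-like cells. The last compares 18.6 CPM in ff with 9.32 CPM in GF, and the ff level was not above that of ff lymphocytes (22.4 CPM). Within that class the Tnc ratio was 0.48 in the Pi16-led and -1.16 in the Ackr4-led cluster. Postn stood at 2001 and 1114 CPM (-0.84) and was called lower in 9 of 15 clusters. Fn1, at 1742 and 1127 CPM (-0.63), had intervals below 0 in 15 of 15 clusters and was called lower in 8; with a stricter cell filter its ratio over all cells was -0.57, short of the fold. Tnc was thus lower in GF within most fibroblast-like clusters as well as over all cells. Sparc (0.14) and Tnxb (0.19) differed little.

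**Figure D5:**
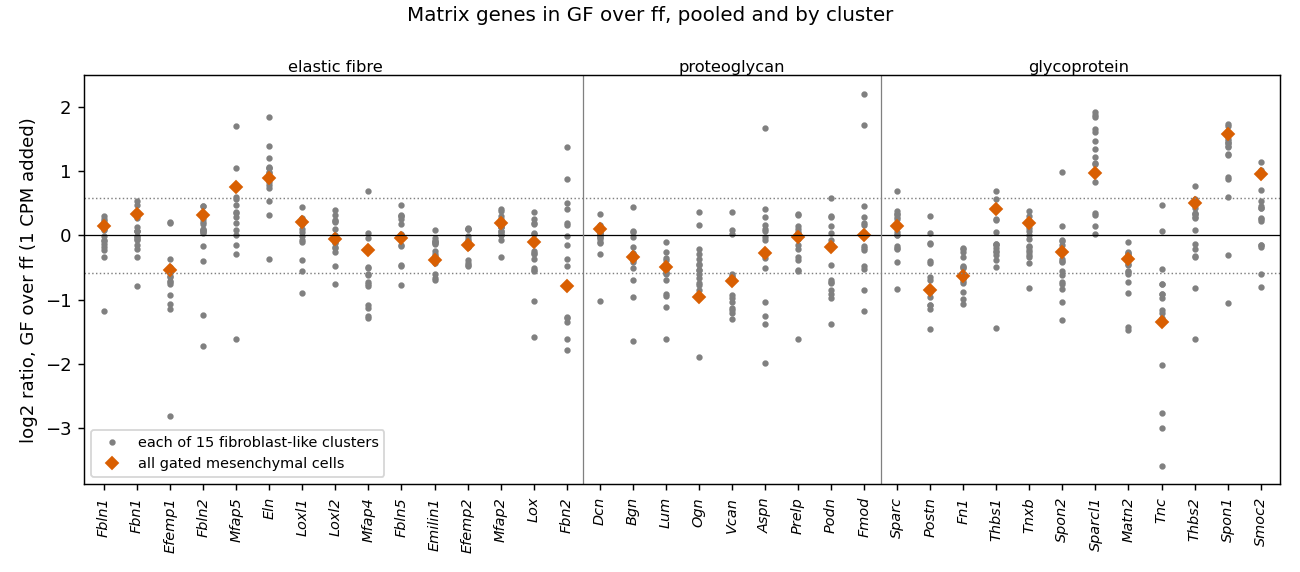
Log2 ratio, GF over ff, of each matrix gene (1 CPM added) over all gated mesenchymal cells (diamonds) and in each of 15 fibroblast-like clusters (grey points, pairs under 50 UMIs included), by gene group; dotted lines mark 1.5-fold. The diamonds of Spon1, Sparcl1, Smoc2, Eln and Mfap5 lie above the upper line and those of Tnc, Ogn, Postn, Fbn2, Vcan and Fn1 below the lower, and the grey points of Tnc and Aspn spread widely.

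In the same comparison, beside 4.82% and 5.27% of all genes, 2 of 19 elastic fibre partners were called higher and 0 lower. These were Hmcn1 (hemicentin-1), at 7.18 CPM in the ff and 15.4 CPM in the GF library (1.001), and Adamtsl2 (0.77); Ltbp2 had 0.57 and Atp7a, a copper transporter that loads lysyl oxidases, -0.45. Of 24 related proteoglycan genes, 2 were called higher and 3 lower. Has1 stood at 563 CPM in the ff and 1364 CPM in the GF library (1.27), and Tsku, a small leucine-rich proteoglycan, had a log2 ratio of 1.10. Spock3 had -1.26 and Epyc -0.82. Of 32 related glycoprotein genes, 6 were called higher and 4 lower, with Ccn5 at 1.35, Pcolce2 at 0.94, Lama5 at -0.97 and Tgfbi at -1.55 (159 and 53.9 CPM). Tgfbi encodes a secreted ligand of integrins.

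Several of the 36 genes were not confined to fibroblasts. In few cells outside the gate, glia-like cells (6 in ff and 15 in GF) held Matn2 at 967 and 1521 CPM and Sparc at 8087 and 6959.9 CPM. Blood endothelium-like cells (30 and 23) held Sparcl1 at 1457 and 2246 CPM, and lymphatic endothelium-like cells (41 and 54) held Prelp at 766 and 663 CPM. Each of these levels was above that of the gated mesenchymal cells of its library and above that of its lymphocytes.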

How the data were processed

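The deposited tables hold raw UMI counts per Ensembl gene and cell, with no normalization by the authors, from Chromium 3′ v3.1 libraries per the labels. Per the submitters' processing notes, Cell Ranger 6.0.0 and mm10 were used, with an annotation release not given in the sources used here. Symbols were matched for 32158 of 32285 genes. Library totals were 119866589 UMIs in 13704 ff barcodes and 105331294 in 16388 GF barcodes, none under 500 UMIs.

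Cells needed at least 500 genes, 1000 UMIs and at most 10% mitochondrial UMIs. Scrublet (scanpy 1.11.5) removed 550 ff (4.33%) and 780 GF (5.18%) cells as doublets. Both libraries were clustered together (2000 variable genes scaled within library, 30 components, 15 neighbours, leidenalg 0.10.2 at resolution 1). The 36 genes, the related lists and haemoglobin and immunoglobulin genes were left out of the variable genes. Has1, Hapln1 and Dpt, which are on the related lists but were naming markers, were not left out. A name needed 3 markers at 2-fold, with at least 1 among the top 10 genes. Unnamed clusters counted as fibroblast-like at 25% or more of the collagen level of the named ones. Leaving out haemoglobin and immunoglobulin genes and the naming thresholds were decided after seeing the data. The members and lists were chosen with earlier results of these data known.

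UMIs were summed per library and class and given as CPM. Ratios are log2 after adding 1 CPM, which understates those of low genes. A gene needed 50 UMIs over both libraries for GF over ff, and 50 in each library for class comparisons. Intervals are exact at 95% (Poisson for CPM, conditional binomial for ratios; scipy 1.17.1) and cover counting error only. Calculations were tested on simulated counts. Described in full were, per gene group and comparison, up to 4 genes with the largest ratio and at least 200 UMIs, and the most abundant 4; from each related list up to 4 by that rule, and the 5 genes most like Eln. Other genes were named after their values were seen. Values of 1 unnamed fibroblast-like cluster are not reported here singly; it stays in the sums, counts and ranges over clusters.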

Additional observations from a re-analysis of the deposited data

How the results depend on the processing

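Over 15 alternatives to scaling, pseudocount, minimum counts, cell filter, doublets, gate, thinning, cluster resolution, cluster weighting and comparison group, 1 summary value moved by more than its limit. When the GF clusters were given the cell shares of ff, 3 genes and not 5 were at least 1.5-fold higher in GF, since Mfap5 (0.42) and Smoc2 (0.49) dropped below the fold. Of 108 calls of single genes over the 5 comparisons, 13 were lost in at least 1 alternative and 0 changed sign. These were Mfap5, Smoc2, Fbn2 and Fn1 for GF over ff; Aspn in ff and Loxl2 and Prelp in GF for Foxl1-high-like cells; and Lox and Podn in ff and Bgn, Efemp1, Fbn2 and Spon2 in GF for adventitial or submucosal-like cells. Median-of-ratios scaling moved the median of all genes from 0.17 to -0.01 in GF and from 0.10 to 0.00 in ff for Foxl1-high-like cells, and from -0.20 to 0.00 in GF for adventitial or submucosal-like cells. No paired analysis was possible because each group has 1 library. Fmod, with 226 and 189 UMIs, and Fbn2, with 1192 and 535, had the fewest UMIs and so the widest counting intervals of the 36.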
